A study of Mus musculus with 2 samples.

Results

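The Hox genes are the homeobox transcription factor genes that lie side by side in the HoxA, HoxB, HoxC and HoxD clusters. They were taken by name, as a family: 38 of them were measured, among 43346 genes in all. The tissue was brain of 1 adult C57BL/6J male, a mouse of an inbred strain, at an age of 10 weeks, and its poly(A) RNA was sequenced in 2 libraries. The labels call the libraries technical replicates 2 and 1 of the same biological replicate, and say that replicate 2 is the later one and stood outside the publication named there. There was no treatment, no altered allele and no other group, and a spread between libraries of 1 mouse holds no difference between animals. The labels do not say which pieces of the brain went into the RNA.

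Each Hox protein binds DNA through its homeodomain, usually with a Pbx or Meis partner. Within a cluster, the genes at the 3' end (low paralog numbers) are switched on earliest and reach farthest forward in the embryo, and those at the 5' end (high paralog numbers) act farther back. In the nervous system the forward limits of expression lie in the hindbrain, and midbrain and forebrain form without Hox expression. Adult hindbrain and spinal cord are known to keep some of it, so the family serves as a check on how much caudal tissue a brain RNA sample holds.

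The Hox genes gave almost no RNA in either library. Of the 38 genes, 34 had 0 expected counts in both libraries, and none had more than 3 counts in either, 3 counts being the limit used throughout for a gene at 0. The 38 genes together held 4 counts in replicate 2 (exact 95% Poisson interval 1.09 to 10.2) and 3 counts in replicate 1 (0.619 to 8.77). That is 0.224 CPM (counts scaled by the library total; 0.0611 to 0.574) in replicate 2 and 0.164 CPM (0.0338 to 0.479) in replicate 1. Summed over the 38 genes, the level was 0.19 TPM in replicate 2 and 0.11 TPM in replicate 1, with a mean of 0.15 ± 0.0566 TPM (SD, n = 2 libraries). The authors' deposited posterior mean TPM, an estimate above 0 also for genes with 0 counts, summed to 8.30 TPM in replicate 2 and 6.35 TPM in replicate 1, a mean of 7.32. TPM is a transcript level corrected for gene length, and its sum is the same in both libraries.

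Depth sets what these zeros can say. The gene counts summed to 17828479 in replicate 2 and to 18302506 in replicate 1, so 3 counts amount to 0.168 CPM in replicate 2 and 0.164 CPM in replicate 1. For single Hox genes, 3 counts correspond to 0.116 to 0.429 TPM in replicate 2 (median 0.168) and to 0.0876 to 0.322 TPM in replicate 1 (median 0.129), the longer genes having the lower limits. The authors' deposited upper bounds of TPM for the same genes had a median of 0.299 TPM in replicate 2 and 0.231 TPM in replicate 1. The widest was that of Hoxa3, at 1.73 TPM in replicate 2 and 1.32 TPM in replicate 1. A Hox transcript below these levels may or may not give a count at this depth, and such limits cover counting error only. In bulk RNA, fewer cells of a type and less RNA per cell cannot be told apart, and a few hindbrain cells in a large piece of brain would be diluted in the same way.

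For the background, 15166 of 21473 protein-coding genes had more than 3 counts in replicate 2, which is 70.6%, and 13666 did in replicate 1, which is 63.6%. Counting genes above 3 counts in at least 1 library, the share was 71.5%, against 0 of 38 Hox genes. Of protein-coding genes, 21.4% had 0 counts in both libraries, against 34 of the 38 Hox genes. These shares describe the libraries and are no test of the family.

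The anterior genes, paralog numbers 1 to 4, are those whose expression reaches into the hindbrain of the embryo. These 11 genes held 4 counts in replicate 2 and 2 counts in replicate 1, and 8 of them were at 0 in both libraries. Hoxd1, which acts in pain-sensing neurons of mouse dorsal root ganglia, had 2 counts in replicate 2 (0.11 TPM) and 2 counts in replicate 1 (0.08 TPM). It was the only Hox gene with a count in both libraries, and its interval ran from 0.242 to 7.22 counts in each. Hoxb4, known for expanding blood stem cells when overexpressed, had 1 count in replicate 2 (0.04 TPM) and 0 in replicate 1. Hoxd4, whose forward limit in the embryo lies in the caudal hindbrain, also had 1 count in replicate 2 (0.04 TPM) and 0 in replicate 1. With counts this small, the libraries' values overlap within counting error for each of these genes.

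The other anterior genes were at 0. Hoxb1, which specifies facial motor neurons, had 0 counts in both libraries. Hoxa2 and Hoxb2, which pattern the hindbrain segments and the neural crest that leaves them, were at 0 in both. Hoxa3 and Hoxb3, needed for the caudal hindbrain and, for Hoxa3, for the thymus and parathyroid, were at 0 as well. So were Hoxd3, Hoxa4 and Hoxc4.

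The central genes, paralog numbers 5 to 8, act in the caudal hindbrain, the neck and the upper trunk. All 11 had 0 counts in both libraries, which is compatible with up to 0.207 CPM for their sum in replicate 2 and up to 0.202 in replicate 1 (upper ends of the exact two-sided 95% Poisson intervals, 3.69 counts, a wider limit than the 3 counts used for single genes). They included Hoxa5, needed for the lung and for the motor neurons of the diaphragm, and Hoxc8 and Hoxc6, which help set the identity of motor neurons that serve the forelimb. Hoxb8, whose loss in mouse microglia is known to go with excessive grooming, was also at 0 in both libraries.

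The posterior genes, paralog numbers 9 to 13, act in the lower trunk, the limbs and the genital tract. In replicate 2 these 16 genes had 0 counts, against 1 count in replicate 1, and 15 of them were at 0 in both. The exception was Hoxd13, which shapes the digits, with 0 counts in replicate 2 and 1 count in replicate 1 (0.03 TPM). Hoxc9 and Hoxc10, which specify motor neurons of the thoracic and lumbar spinal cord, were at 0 in both libraries, as were Hoxb13 of the prostate and Hoxc13 of hair follicles.

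**Figure D1:**
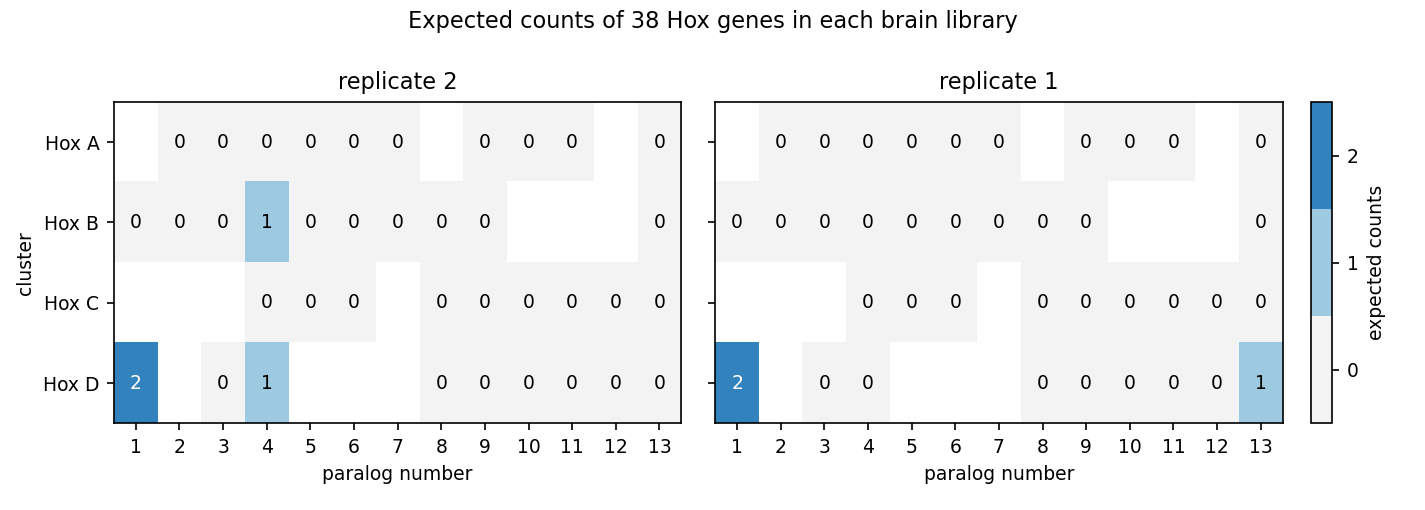
Expected counts of the 38 Hox genes by cluster (rows) and paralog number (columns), in replicate 2 (left) and replicate 1 (right); each number is the count of that gene, and blank squares hold no gene of the 38. The squares above 0 are Hoxd1 with 2 counts in each library, Hoxb4 and Hoxd4 with 1 count in replicate 2, and Hoxd13 with 1 count in replicate 1.

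By cluster, the 10 HoxA genes on chromosome 6 (mm10, 52162417 to 52260880) had 0 counts in both libraries. The 10 HoxB genes on chromosome 11 (96194316 to 96368256) held 1 count in replicate 2 and 0 in replicate 1. The 9 HoxC genes on chromosome 15 (102921103 to 103036852) had 0 in both. The 9 HoxD genes on chromosome 2 (74668310 to 74765142) held 3 counts in replicate 2 and 3 in replicate 1. The intervals of the clusters overlap: 0.619 to 8.77 counts for HoxD and up to 3.69 for a cluster at 0, in either library.

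Members of this family resemble each other in sequence, so whether a read can be told to belong to 1 of them matters for such small counts. A homeobox of 180 bases was found in a transcript of all 38 genes. The homeobox of Hoxd13, the posterior gene with a count, is printed below 5' to 3', as an example of the domain the family shares; capitals mark the 15 bases that code residues 48 to 52, part of the helix that reads the DNA. The sequence is coding sequence from a GENCODE M21 transcript on GRCm38.
Hoxd13: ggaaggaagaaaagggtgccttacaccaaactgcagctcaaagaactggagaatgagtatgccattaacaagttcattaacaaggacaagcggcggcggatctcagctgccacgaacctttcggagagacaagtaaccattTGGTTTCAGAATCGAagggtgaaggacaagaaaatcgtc

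The homeoboxes of Hoxb4 and Hoxd4, which share a paralog number, differed at 35 of 180 bases (80.6% identity) but at only 3 of 60 residues. Their longest identical run was 29 bases. Over the 40 pairs with the same paralog number the identity had a median of 80.6% and ran from 67.2% to 93.9%, the highest being Hoxa3 with Hoxb3. Over the 663 other pairs the median was 60.6%, with a range of 46.1% to 88.9%. An identical run of at least 50 bases inside the homeobox was found in 1 of all 703 pairs.

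Over whole transcripts, 23 of the 38 genes had no 50-base window in common with any other annotated gene on the same strand, and 35 had at least 90% of their windows to themselves. The family's own windows numbered 94245. Hoxd1 had 100% of its windows to itself and Hoxb4 99.6%. Hoxd3, with 39.8%, and Hoxd4, with 53.2%, shared the most, with each other and with Gm28230 on the same strand, so the count of Hoxd4 is uncertain between these genes. Hoxa2 had 87.3% to itself and shared the rest with Gm28308. Neither the read length nor the use of strand in counting is stated in the labels. Counts of a Hox gene and of an antisense transcript that overlaps it thus cannot be told apart. Among the Hox genes with a count, Hoxd1 and Hoxd13 shared 0% of their windows with annotated antisense genes, Hoxb4 0.278% and Hoxd4 10%.

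Most other transcripts of the clusters were at 0 as well. Between the outermost Hox genes of the 4 clusters lay 40 other annotated genes, and 38 of them had 0 counts in both libraries. The exceptions were Haglr, a noncoding RNA of the HoxD cluster, with 4 counts in replicate 2 (0.51 TPM) and 0 in replicate 1, and the pseudogene Gm11539 in HoxB with 1 count in replicate 2 and 0 in replicate 1. Haglr thus passed the limit of 3 counts in replicate 2, which no Hox gene did. It lies on the minus strand of chromosome 2 at 74748422 to 74762896 (mm10), next to the start of Hoxd1, which lies on the plus strand at 74762980 to 74765142. Of 11 named noncoding RNAs of the clusters, 9 were at 0 in both libraries, among them Hotair and Hottip. Hotairm1 had 1 count in replicate 2 and 1 in replicate 1. For the background, 21212 of all 43346 genes had a rounded count of at least 1 in the sum of both libraries. Many of the 40 genes between the Hox genes are annotated as microRNA or miscellaneous RNA genes. Their zeros are thus no test of the clusters.

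Most coding genes outside the clusters had RNA. Of 50 protein-coding genes within 500 kb outside the clusters, 40 had more than 3 counts in replicate 2 and 36 did in replicate 1. Beside HoxD, Lnpk was at 30.0 TPM in replicate 2 and 54.3 TPM in replicate 1, and Mtx2 at 42.1 TPM in replicate 2 and 63.1 TPM in replicate 1. Beside HoxA, Hibadh was at 57.6 TPM in replicate 2 and 46.0 TPM in replicate 1. Beside HoxC, Cbx5, a heterochromatin protein gene, was at 76.4 TPM in replicate 2 and 105 TPM in replicate 1. As a whole, the 25 coding genes beside HoxC had a median of 19.2 TPM in replicate 2 and 3.56 TPM in replicate 1, and the 18 beside HoxB a median of 9.16 TPM in replicate 2 and 0.82 TPM in replicate 1. The nearest homeobox relatives were low: beside HoxA, Evx1 had 2 counts in replicate 2 against 1 in replicate 1, and beside HoxD, Evx2 had 7 counts in replicate 2 against 6 in replicate 1. Of the 11 genes listed as neighbours of the clusters, 10 had more than 3 counts in each library. The Evx genes are named after their values were seen, as they are the homeobox genes that border the clusters.

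**Figure D2:**
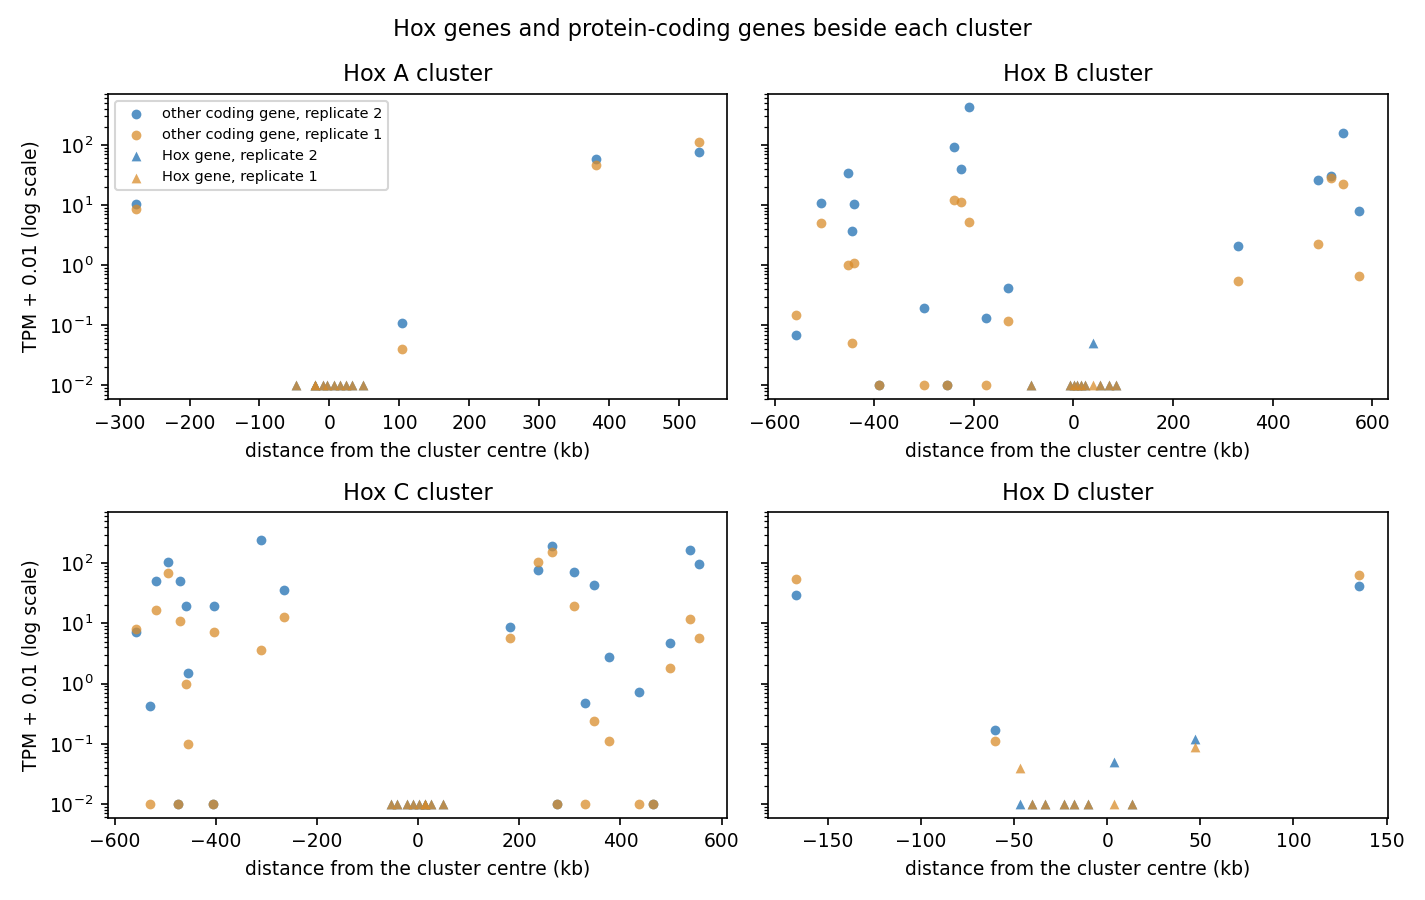
Level of each Hox gene (triangles) and of each other protein-coding gene within 500 kb of a cluster (circles) against its distance from the cluster's centre in kb, with TPM + 0.01 on a log scale, in replicate 2 and replicate 1; points at the bottom are genes at 0. The Hox genes lie at or near the bottom, from 0 to 0.11 TPM, and most genes outside the clusters lie above them.

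The partners and regulators of Hox proteins were measured in the same libraries. All 9 cofactor genes of the Pbx, Meis and Pknox families had more than 3 counts in both libraries. Meis2 was at 77.8 TPM in replicate 2 and 60.7 TPM in replicate 1, and Pbx2 at 30.8 TPM in replicate 2 and 9.14 TPM in replicate 1. These proteins have partners other than Hox proteins in the brain. The summed level of the 9 genes was 242 TPM in replicate 2 and 120 TPM in replicate 1.

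Chromatin regulators known for keeping Hox clusters silent or active were also present. All 19 had more than 3 counts in replicate 2, and 18 did in replicate 1. Bmi1, of the Polycomb repressive complex that modifies histone H2A, was at 26.9 TPM in replicate 2 and 64.9 TPM in replicate 1. Ctcf, which binds boundaries within the clusters, was at 39.2 TPM in replicate 2 and 33.1 TPM in replicate 1. Suz12, a core subunit of the complex that methylates histone H3, was at 16.1 TPM in replicate 2 and 35.6 TPM in replicate 1.

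Of 15 genes that act upstream of Hox expression in the embryo, 10 had more than 3 counts in replicate 2 and 9 did in replicate 1, and 4 were at 0 in both. The 4 were Cdx1, Cdx2 and Cdx4, the caudal-type homeobox factors that activate central and posterior Hox genes, and Cyp26c1, a retinoic acid hydroxylase. The highest was the retinoic acid receptor gene Rarb, at 11.7 TPM in replicate 2 and 8.64 TPM in replicate 1. Gdf11, a secreted signal that sets how far along the trunk posterior Hox genes are expressed, was at 8.59 TPM in replicate 2 and 5.27 TPM in replicate 1. Of 13 ParaHox and other Hox-like genes, 5 had more than 3 counts in replicate 2 and 3 did in replicate 1.

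Homeobox genes outside the clusters differed from the Hox genes in level. Of 52 such genes, 50 had more than 3 counts in replicate 2 and 43 did in replicate 1. Their median was 4.83 TPM in replicate 2 and 2.83 TPM in replicate 1, against a Hox median of 0 in both libraries. All 17 forebrain transcription factors, a list that shares members with the homeobox list, had more than 3 counts in replicate 2, and 16 did in replicate 1. Neurod6, of cortical excitatory neurons, was at 64.3 TPM in replicate 2 and 86.2 TPM in replicate 1. Tbr1, of deep-layer cortical neurons, was at 33.4 TPM in replicate 2 and 35.9 TPM in replicate 1. The lists were picked for such tissue, and no test sets them against the Hox genes.

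Markers of caudal brain tissue give the comparison the Hox check calls for, and their values were mixed. Of 18 markers of hindbrain and spinal neurons, 12 had more than 3 counts in replicate 2 and 8 did in replicate 1, with summed levels of 24.0 TPM in replicate 2 and 20.3 TPM in replicate 1. The highest was Tph2, the enzyme that makes serotonin in raphe neurons of midbrain and hindbrain, with 260 counts in replicate 2 (9.83 TPM) and 426 counts in replicate 1 (12.1 TPM). Slc6a4, the serotonin transporter, had 145 counts in replicate 2 (5.28 TPM) and 65 counts in replicate 1 (1.78 TPM). Pou4f1, also a gene of the habenula and the red nucleus, was at 1.31 TPM in replicate 2 and 3.83 TPM in replicate 1.

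Most of the 18 markers of hindbrain and spinal neurons were far below Tph2. Their median was 0.315 TPM in replicate 2 and 0.045 TPM in replicate 1. Lmx1b had 11 counts in replicate 2 and 0 in replicate 1. Slc6a5, picked after its values were seen, is the glycine transporter of inhibitory neurons in hindbrain and spinal cord and had 30 counts in replicate 2 (0.40 TPM) and 28 counts in replicate 1 (0.28 TPM). Phox2a and Lbx1 were at 0 in both libraries. Markers of such neurons were therefore at 0 in places and above the limit in others, and their bearing on the Hox zeros was not tested.

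Cerebellum forms from the most rostral hindbrain, in front of the Hox domain, so its cells are not a source of Hox RNA in the embryo. Of 13 cerebellar markers, 11 had more than 3 counts in replicate 2 and 10 did in replicate 1. The highest were Calb1, at 52.5 TPM in replicate 2 and 96.1 TPM in replicate 1, and Zic1, at 15.7 TPM in replicate 2 and 12.9 TPM in replicate 1, both also expressed outside the cerebellum. Gabra6, of granule cells, had 2 counts in replicate 2 and 11 counts in replicate 1 and was called lower in replicate 2 by the exact binomial test described further on (log2 fold -2.77, adjusted p = 0.0019). Picked after their values were seen, Pcp2, of Purkinje cells, had 1 count in replicate 2 and 0 in replicate 1, and Cbln3, also of granule cells, had 16 counts in replicate 2 and 18 in replicate 1. All 11 general brain markers had more than 3 counts in both libraries. Of 10 markers of tissues outside the brain, 6 had more than 3 counts in replicate 2 and 3 did in replicate 1. Of the 5 tested, 3 were called higher in replicate 2 and 0 lower, beside 34.5% called higher of all genes tested. Scaled by library totals, 4 were called higher and 0 lower. The 3 were Acta1 of muscle, with 129 counts in replicate 2 and 1 in replicate 1, Alb of liver, with 105 in replicate 2 and 3 in replicate 1, and the collagen gene Col1a1, with 141 in replicate 2 and 14 in replicate 1. The highest of the list, Dcn, went the other way, with 347 counts in replicate 2 and 414 in replicate 1 (log2 fold -0.83), and was not called. The kidney markers Cdh16 and Umod were at 0 in both libraries. The part of such tissue in the Hox counts was not tested.

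**Figure D3:**
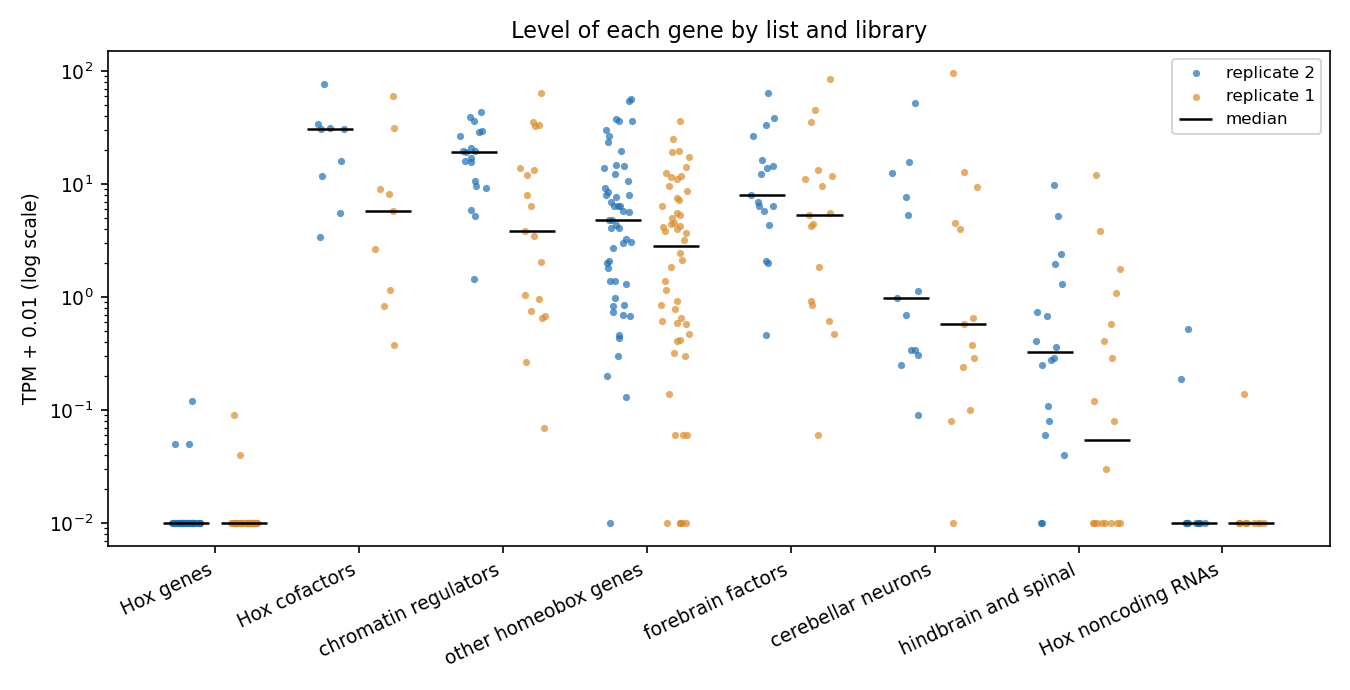
Level of each gene as TPM + 0.01 on a log scale, for the Hox genes and for lists of related genes, in replicate 2 (left of each pair) and replicate 1 (right); each point is a gene and bars are medians. Nearly all Hox genes and Hox noncoding RNAs lie at 0, the bottom of the axis, while cofactors, chromatin regulators and other homeobox genes have medians between 2.83 and 30.6 TPM.

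Between the libraries, no Hox gene could be called different. The libraries were compared by a two-sided exact binomial test over genes whose summed count reached 10. A call needed a 2-fold difference or more and an adjusted p (Benjamini-Hochberg) under 0.05. It called 9555 of 16320 genes, which is 58.5%, with 34.5% higher and 24.0% lower in replicate 2. None of the 38 Hox genes reached 10 counts, so none was tested. With no count minimum, 4 were tested and 0 were called, against 45.2% of all genes tested that way, but with at most 4 counts a gene this says little of a difference.

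The lists around the Hox genes are given beside these shares and beside the counts with library totals, by which 7121 of the 16320 genes were called higher and 1288 lower. Of the 9 cofactors, 4 were called higher in replicate 2 and 0 lower. They were Meis3 with 446 counts in replicate 2 and 9 in replicate 1 (log2 fold 4.98), Pbx4 with 93 counts in replicate 2 and 4 in replicate 1 (log2 fold 3.80), Pknox1 and Pknox2. Of the 19 chromatin regulators, 9 were called higher and 6 lower, and scaling by library totals in place of TMM made this 11 higher and 3 lower. Of 47 other homeobox genes tested, 10 were called higher and 10 lower, against 16 higher and 4 lower with library totals. Of 10 hindbrain and spinal markers tested, 2 were called higher and 2 lower, against 4 higher and 1 lower with library totals. Of 10 neighbours of the clusters tested, 1 was called higher and 4 lower, against 2 higher and 1 lower with library totals. Of 11 cerebellar markers tested, 1 was called higher and 4 lower, against 2 and 2 with library totals, and of 17 forebrain factors 3 higher and 5 lower, against 4 and 0. No list was tested as a whole. The test compares these libraries, not conditions, and has no replicate check.

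The libraries differed in the share of GC-rich genes they held. The mean GC content of Hox transcripts had a median of 54.6% and ran from 46.5% to 62.3%. In the class from 50% to 55% GC, which held 16 of the 38 Hox genes, 78.5% of protein-coding genes had more than 3 counts in replicate 2 and 71.1% did in replicate 1. In the class from 55% to 60% GC, which held 14 Hox genes, the shares were 82.5% in replicate 2 and 63.1% in replicate 1. For the 3 Hox genes from 60% to 65% GC they were 81.7% in replicate 2 and 46.9% in replicate 1. For the 5 Hox genes from 45% to 50% GC they were 72.5% in replicate 2 and 71.2% in replicate 1. In replicate 2, these shares lay above the 70.6% of all protein-coding genes. In replicate 1, the shares of the classes from 45% to 55% lay above the 63.6% of all protein-coding genes. Those from 55% to 65% lay below it. The bearing of GC content on the Hox zeros was not tested.

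**Figure D4:**
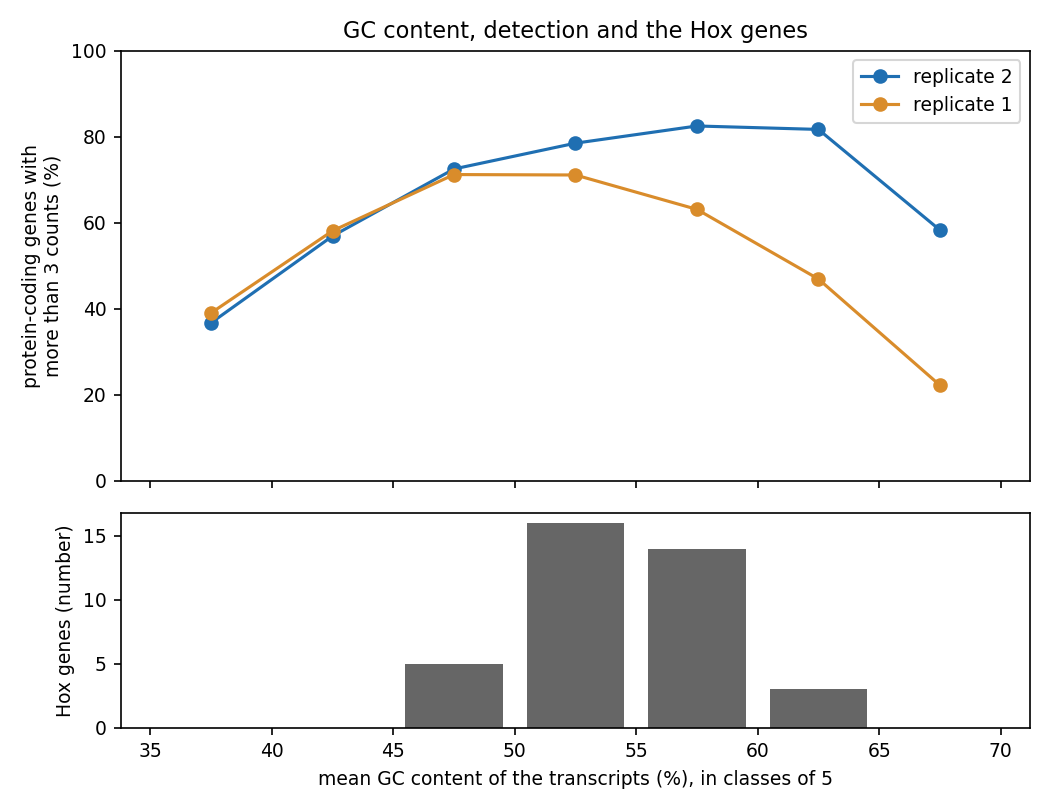
Top: percent of protein-coding genes with more than 3 counts in classes of mean transcript GC content (5 percentage points wide), for replicate 2 and replicate 1. Bottom: number of Hox genes in each class; they lie in the classes from 45% to 65%, where the share is between 72.5% and 82.5% in replicate 2 and between 46.9% and 71.2% in replicate 1.

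The transcript tables placed each Hox count on a known coding transcript. Hoxb4, Hoxd1 and Hoxd13 have 1 annotated transcript each. Of the 3 transcripts of Hoxd4, ENSMUST00000047904.3, of 2560 bases, held 100% of the gene's level in replicate 2. With 1 count behind it, this share gives no more than the place of that count.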

How the data were processed

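Poly(A) RNA of 1 mouse brain was measured in 2 libraries, which form 1 group. Expected counts, which need not be whole, were deposited by the authors for genes and transcripts. TPM and FPKM were deposited by the authors beside them, with bounds on a posterior mean TPM. The transcript tables also give each transcript's percent of its gene's level, as deposited by the authors. The build mm10 and GENCODE M4 are named per the submitters' processing notes, and no quantifier or aligner is named in the sources used here.

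Of each gene table, 43346 rows carried an Ensembl gene identifier. The other 26345, which held 1 count in replicate 2 and 0 in replicate 1, were left out. Symbols (42462 genes), positions, GC content (42721 genes) and transcript sequences came from GENCODE M21 on the same build, and all 38 Hox genes matched. The 38 Hox genes and the 12 other lists were chosen with earlier results of these data known. All Hox genes could be named. Of other lists, the 3 members of highest mean TPM, members called different and those at 0 in both libraries could be named; exceptions are stated, and some members are not reported here.

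A count of 0 was taken to allow up to 3 counts, which is 1.68e-05% of all counts for replicate 2 and 1.64e-05% for replicate 1. Intervals of count sums are exact Poisson intervals (95%). Expected counts were rounded and compared by an exact binomial test with TMM-scaled library sizes; folds were taken after adding 0.5 to both counts. Neither edgeR's quasi-likelihood test nor that of DESeq2 could be fitted with 1 library per side. The test was tried on simulated Poisson counts. These held only counting error and set fold changes, so they do not show how it fares on these libraries. Alternatives were library totals, DESeq2 size factors, no count minimum, posterior mean counts and TPM, FPKM, other count limits and each library alone. Homeoboxes were found by translating transcripts in all frames, and windows of 50 bases were compared over all annotated transcripts. Tools were R 4.3.3, edgeR 4.0.16, DESeq2 1.42.0, matplotlib 3.10.9, scipy 1.17.1, pandas 2.3.3, numpy 2.4.6 and Python 3.11.15.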

Additional observations from a re-analysis of the deposited data

How the results depend on the processing

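No Hox gene was called different between the libraries with library totals, DESeq2 size factors, no count minimum, posterior mean counts or no fold minimum, but at most 4 could be tested, so this says little. None had at least 10 counts, nor more than 3 by posterior mean counts, in either library. At a limit of at least 1 count, 3 Hox genes passed in replicate 2 and 2 in replicate 1. With the counts of both libraries summed, an alternative chosen after seeing the data, 1 gene passed, Hoxd1. The summed Hox level was 0.19 TPM without replicate 1 and 0.11 TPM without replicate 2, and 0.148 TPM from rescaled FPKM. From the deposited posterior mean TPM it was 7.32, with 8.30 in replicate 2 and 6.35 in replicate 1. That estimate is above 0 for genes with 0 counts: over the 34 Hox genes at 0 in both libraries its median was 0.11 TPM in replicate 2 and 0.085 TPM in replicate 1.

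Over all genes, 59.0% of the 9555 calls were higher in replicate 2. With library totals it was 84.7% of 8409 calls, since the log2 size ratio of replicate 2 over replicate 1 was -0.04 by totals and 0.57 by TMM. The other alternatives called from 8842 (protein-coding genes only, chosen after seeing the data) to 13505 genes (no fold minimum). A median log2 ratio over Hox genes tested, or over those with a mean TPM of at least 0.1, could not be had, as there were none. No paired analysis was possible because both libraries belong to 1 group. For single Hox genes at 0 counts, the limit used at this depth is the level given for 3 counts, and the authors' upper bounds are wider for many. Hox genes with a count have wider intervals, up to 7.22 counts for Hoxd1. With 1 mouse, nothing is known of other animals.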
